A study of Homo sapiens with 30 samples.

Results

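The 33 genes described here carry glucose through the cell to pyruvate and lactate: 2 glucose transporters, the isoenzymes of each glycolytic step, the enzymes that set fructose-2,6-bisphosphate, the lactate dehydrogenase subunits, the monocarboxylate transporters with their chaperone, and the kinases, phosphatase and E1 subunits of pyruvate dehydrogenase. They are a list of names that covers these steps, and no measured value enters the rule. The genes were chosen with earlier results of these data known. All 33 were found in both count tables, of 26475 genes in each, and all 33 passed the filter on low counts in both. The study asked how clonal lineages of a breast cancer line cooperate by exchanging soluble metabolites, and the values are RNA levels in 30 libraries that fall into 10 groups of 3. All cells derive from MDA-MB-231, a human triple-negative, mesenchymal-like breast cancer cell line, and each group is labelled as a wild-type, distinct lineage exposed to no specific treatment. Lineages 22, 35, 45, 03, 10 and 13 and a group named Pop were grown in isolation for about 24 hours in RPMI-1640 with 10% dialyzed fetal bovine serum and 2 mM L-glutamine. The labels do not say what Pop is. Lineages 22, 35 and 45 were also kept for 15 days in the same medium in a co-culture of 6 members, with a passage through a bottleneck every 3 days, and were then separated by fluorescence-activated cell sorting. The first table holds lineages 22, 35 and 45 in isolation and in co-culture, the second holds lineages 03, 10, 13 and Pop, and values are compared within a table only.

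Glucose enters by facilitated transporters of the SLC2A family and is trapped by hexokinase as glucose-6-phosphate. Phosphofructokinase commits it to glycolysis, aldolase splits the sugar, and the enzymes from triosephosphate isomerase to pyruvate kinase yield ATP and pyruvate. Lactate dehydrogenase interconverts pyruvate and lactate, and monocarboxylate transporters move lactate across the membrane. The pyruvate dehydrogenase complex, inside the mitochondrion, instead turns pyruvate into acetyl-CoA. It is switched off by the PDK kinases and on by the PDP phosphatases.

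Total counts per library were 29.8 to 38.8 M (M, 1e+06 counts) in the first table and 28.1 to 35.4 M in the second. Levels are given as CPM, counts per 1e+06 counts of the library, after TMM scaling, which corrects library size for differences in composition. Differences are log2 fold changes from the fit, with the standard error (SE), and a gene was called where edgeR's quasi-likelihood test gave a Benjamini-Hochberg adjusted p under 0.05 over all genes of its table. Nothing in the labels ties the 3 replicates of a group to separate cultures, and p-values therefore measure only the spread between these libraries. Of 6 genes that mark MDA-MB-231, none was at 0 in any group; VIM was between 2227 and 6409 CPM. A list of 8 luminal epithelial markers was chosen as low or absent in this line: ESR1, PGR, ERBB2, GATA3, CDH1, EPCAM, KRT18 and KRT8. It was not absent in sum, and the sum does not show which of the 8 contributed. In lineage 22 it summed to 1611 to 1671 CPM in isolation and 2156 to 2570 in co-culture. Lineage 35 had 1178 to 1297 and 1569 to 1835 CPM, and lineage 45 had 1037 to 1231 and 1439 to 1646 CPM. Lineages 03, 10, 13 and Pop had 748 to 863, 836 to 878, 1019 to 1038 and 1364 to 1700 CPM. Isolated cells were lysed in TRIzol after a day, whereas co-culture cells were sorted and extracted with another kit, so culture, time, sorting and extraction cannot be told apart in the co-culture comparisons. Genes called at 2-fold or more made up 23.8% of all genes for lineage 35 between co-culture and isolation, against 13.7% for lineage 22 and 9.4% for lineage 45. They made up 15.8% between lineages 35 and 45 in isolation but 2.9% between the same 2 labels in co-culture. In lineage 35, 3 genes were above 5 CPM in every isolation library and below 0.1 CPM in every co-culture library, and 5 the reverse, against 0 and 0 for lineage 22 and 0 and 1 for lineage 45. Markers of other cell types moved too: the summed level of 6 endothelial and erythroid markers was 6.3 to 7.37 CPM in the isolation and 124 to 134 CPM in the co-culture libraries labelled 35, and that of 6 leukocyte markers 10.8 to 26.9 and 67.5 to 73.5 CPM. In the libraries labelled 35, ESAM went from 6.65 to 125 CPM, LAPTM5 from 18.3 to 67.8, PECAM1 from 0.153 to 3.11, PTPRC from 0.0504 to 0.938 and CD14 from 0.223 to 0.913 CPM, and CD3E, TYROBP and HBB were at 0 in both conditions. The leukocyte sum was 199.8 to 229 CPM in isolation and 142 to 157 CPM in co-culture for lineage 22 and 141 to 179.8 and 91.4 to 99.7 CPM for lineage 45, and the endothelial and erythroid sum 95.7 to 99.4 and 140.0 to 149.8 CPM for 22 and 117 to 123 and 125 to 138 CPM for 45. In the second table the leukocyte sum was 74.3 to 94.3, 9.11 to 19.1, 10.7 to 21.3 and 89.7 to 119 CPM in lineages 03, 10, 13 and Pop, and the other sum 13.2 to 17.3, 30.1 to 32.7, 6.14 to 8.01 and 80.7 to 94.3 CPM. The part of these shifts in the results was not tested. Whether the 2 groups labelled 35 hold the same cells was not tested, so each count over the 3 lineages is also given for lineages 22 and 45.

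At most steps 1 isoenzyme was well above its partners when CPM was divided by transcript length, taken as a range from the longest to the shortest annotated coding transcript; the ranges of the PDK kinases overlapped. In isolated lineage 22, SLC2A1, the widespread basal glucose transporter, stood at 126 CPM per kb against 13.3 for SLC2A3, its high-affinity relative. HK1, the constitutive hexokinase, stood at 63.7 to 78.8 against 12.2 CPM per kb for HK2, the inducible form. The platelet-type phosphofructokinase PFKP reached 228 to 238 CPM per kb, above the liver type PFKL at 41.5 and the muscle type PFKM at 25.7 to 30.2. ALDOA stood at 467 to 574 and ALDOC at 3.01 to 3.46 CPM per kb. LDHA, whose subunit is classed as favouring lactate formation, stood at 874 to 1639.9 and LDHB at 383 to 452 CPM per kb. The lactate exporter SLC16A3 (MCT4) stood at 109.7 to 265 CPM per kb and SLC16A1 (MCT1) at 0.217 to 0.243. GAPDH was at 2349 to 3507 CPM per kb. Each of these isoenzyme orders, except that of PFKL over PFKM, held in all 10 groups with ranges that did not overlap. So did ENO1 over ENO2 over ENO3, and PDHB over PDHA1, which are subunits of 1 enzyme and not isoenzymes.

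**Figure D1:**
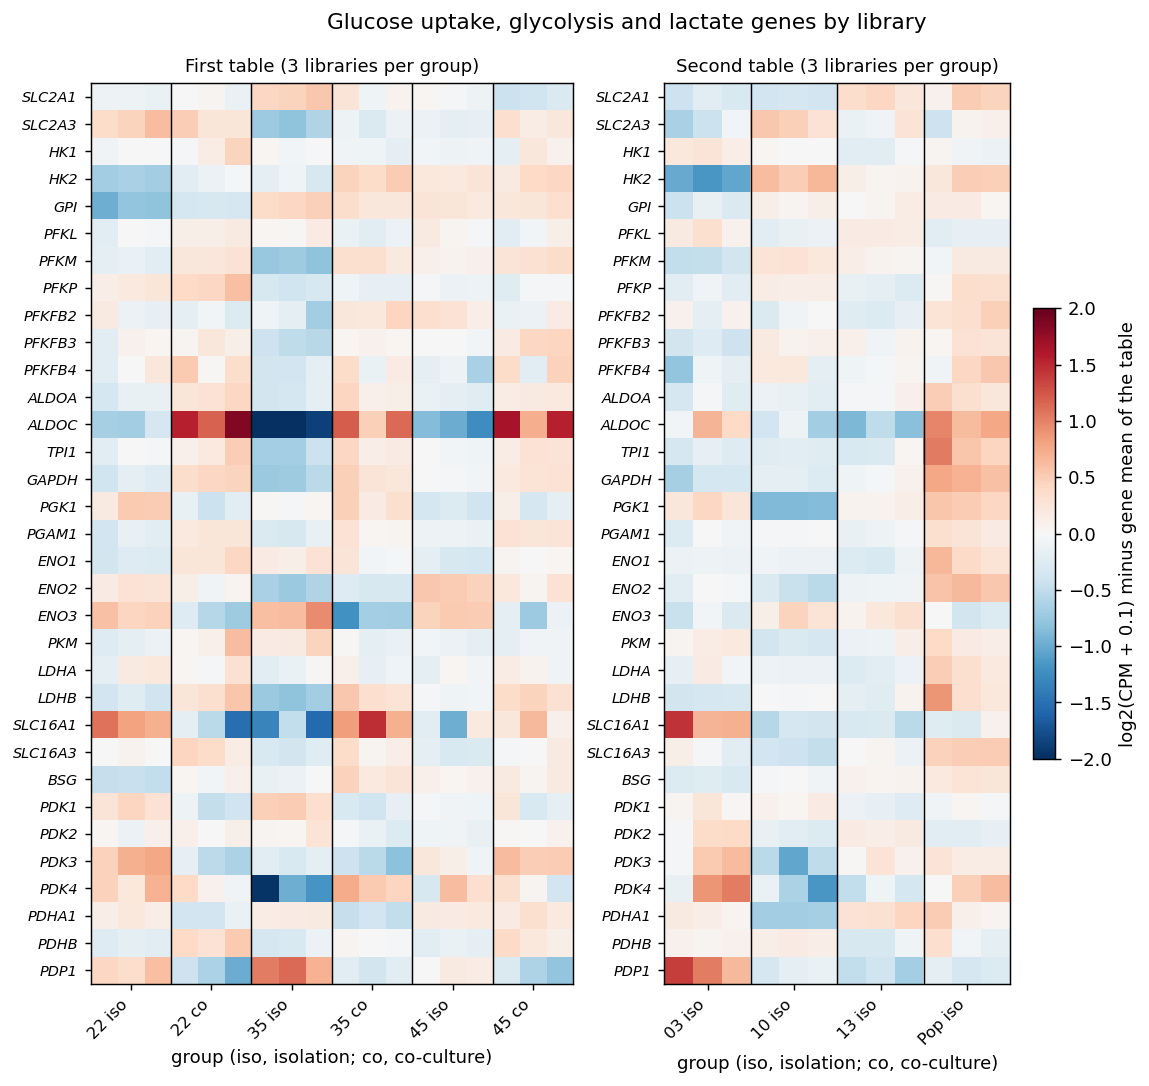
Level of each gene in each library as log2(CPM + 0.1) minus the gene's mean over its table, with red above and blue below that mean and the scale ending at 2 in either direction. Columns are single libraries, in 6 groups of the first table (left) and 4 of the second (right); ALDOC is low in the isolation and high in the co-culture libraries of the first table.

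In co-culture, more of the 33 genes rose than fell in every lineage. In lineage 22, 16 were higher and 8 lower, where 27% of all genes were higher and 30% lower. In lineage 35, 20 were higher and 9 lower, with 32.7% and 32.9% of all genes; the 9 became 5 without isolation replicate 3. In lineage 45, 14 were higher and 4 lower, with 18.6% and 23.2% of all genes; asking for more than 1.2-fold left 3 higher and 2 lower. The same threshold left 4 in place of 9 lower in lineage 35. The median log2 change of the 33 was 0.23, 0.36 and 0.13 in lineages 22, 35 and 45, against -0.04, 0.01 and -0.03 over all genes tested. These 3 comparisons share no library, but the labels do not say whether the lineages were sorted from shared co-cultures. Same-numbered co-culture libraries of lineages 22 and 45 deviated together (correlations of 0.36, 0.25 and 0.17), so the comparisons may not be independent. In all 3 of them, 9 genes were higher (PFKM, ALDOA, ALDOC, TPI1, GAPDH, PGAM1, LDHB, SLC16A3 and PDHB), where 7.77% of all genes were. ENO3 and PDP1 were lower in all 3, where 10.6% of all genes were. In lineages 22 and 45 alone, 10 were higher in both, the 9 above and ENO1 (12.8% of all genes), and 3 lower, ENO3, PDP1 and ENO2 (16.4%). When the test asked for a change of more than 1.2-fold, 2 genes in place of 9 were called higher in all 3 lineages. The shares of all genes given here are for the test without this threshold. In bulk RNA, fewer cells that express a gene and less RNA per cell cannot be told apart.

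**Figure D2:**
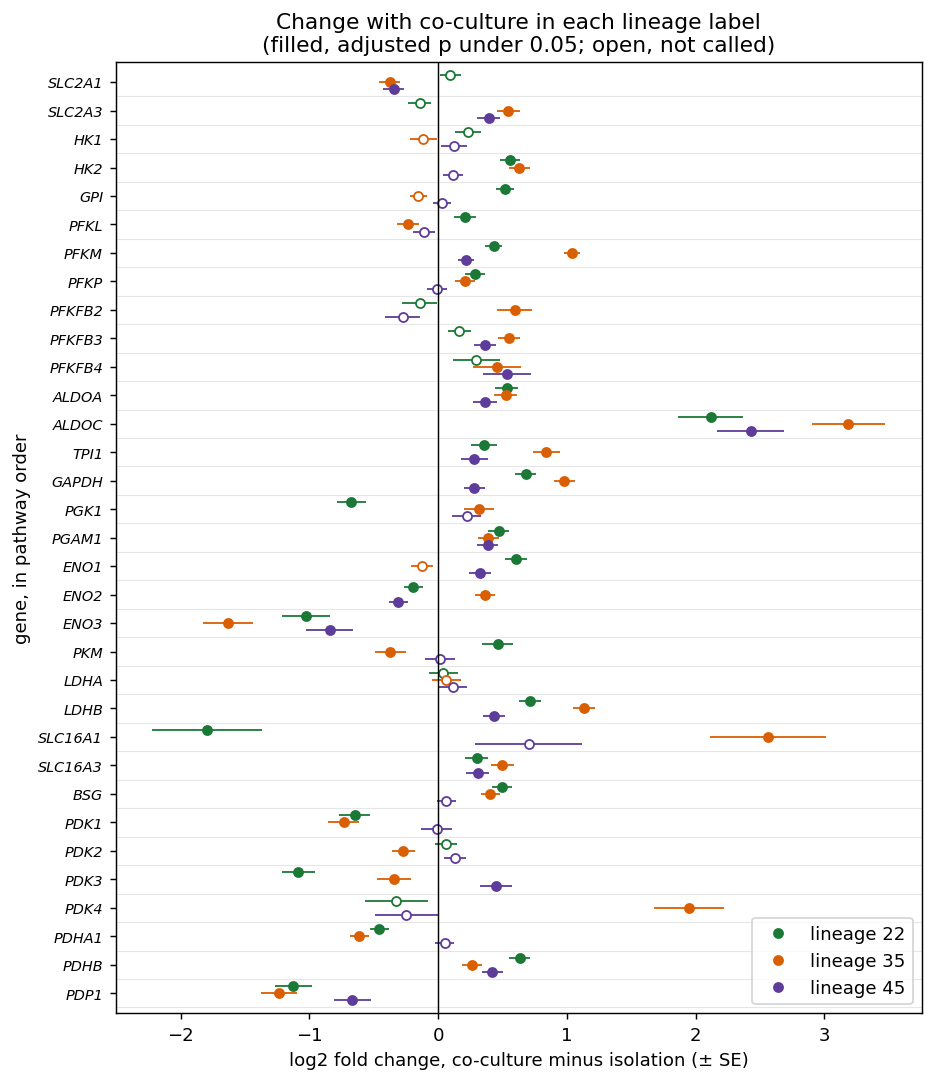
Log2 fold change of each gene between co-culture and isolation, with its SE, in the libraries labelled 22, 35 and 45 (3 libraries per group). Filled points passed the adjusted p threshold and open points did not. Within each lineage ALDOC lies farthest to the right, at 2.12 to 3.19 over the 3 lineages, and LDHA lies near 0 in all 3.

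At the point of uptake, no change was shared by the 3 lineages. SLC2A1 was at 463, 466 and 454 CPM in the libraries of isolated lineage 22 and 502, 516 and 456 CPM in co-culture, at 661, 679.9 and 721 CPM in isolation and 593, 469 and 524 CPM in co-culture in lineage 35, and at 514, 488 and 463 CPM in isolation and 369, 377 and 407 CPM in co-culture in lineage 45. It fell in lineage 35 (-0.38 ± 0.08, adjusted p = 0.00044, edgeR) and in lineage 45 (-0.35 ± 0.08, adjusted p = 0.0022), and was at 0.09 ± 0.08 in lineage 22. SLC2A3 was at 48.4, 50.9 and 57.4 CPM in isolation and 53.1, 44.4 and 44.3 CPM in co-culture in lineage 22, at 22.6, 21.3 and 24.6 CPM in isolation and 35, 30.7 and 34.5 CPM in co-culture in lineage 35, and at 34.5, 33.1 and 33.6 CPM in isolation and 47.2, 41.8 and 44.1 CPM in co-culture in lineage 45. Its changes ran the other way: it rose in lineages 35 and 45, by 0.55 ± 0.09 and 0.39 ± 0.09 on the log2 scale, and was at -0.14 ± 0.09 in lineage 22.

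Of the hexokinases, HK1 was not called in any lineage and HK2 rose in lineages 22 and 35. HK1 was at 247, 258 and 258 CPM in isolation and 254, 289 and 354 CPM in co-culture in lineage 22, 267, 249 and 263 CPM in isolation and 247, 244 and 229 CPM in co-culture in lineage 35, and 251, 242 and 249 CPM in isolation and 227, 303 and 277 CPM in co-culture in lineage 45. HK2 was at 69.7, 72.2 and 69.4 CPM in isolated and 97.6, 104 and 109 CPM in co-cultured lineage 22. It was at 99.7, 106 and 90.4 CPM in isolation and 153, 146 and 160.3 CPM in co-culture in lineage 35, and the libraries of the 2 conditions did not overlap in either lineage. In lineage 45 it was at 130.2, 129.8 and 135 CPM in isolation and 128, 149 and 151 CPM in co-culture, with overlap. The log2 changes were 0.56 ± 0.08, 0.63 ± 0.08 and 0.12 ± 0.08, the last not called (adjusted p = 0.24, edgeR). The log2 ratio of HK2 to HK1 went from -1.40 ± 0.16 (SD, n = 3) to -0.65 ± 0.12 in lineage 35.

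GPI, which turns glucose-6-phosphate into fructose-6-phosphate, was called in lineage 22, where it rose (0.52 ± 0.07, adjusted p = 3.6e-06, edgeR). It was at 169, 192 and 191 CPM in isolated lineage 22, below every other library of the first table, and at 261, 267 and 265 CPM in co-culture. In lineage 35 it was at 427, 444 and 465 CPM in isolation and 424, 388 and 389 CPM in co-culture, and in lineage 45 at 397, 394 and 383 CPM in isolation and 390.2, 391 and 418 CPM in co-culture. The difference between the changes of lineages 22 and 35 was itself called (0.67 ± 0.10).

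Among the phosphofructokinases, PFKM rose in all 3 lineages. Its levels were 82.1, 85.6 and 81.3 CPM in isolation and 110.2, 110.2 and 115 CPM in co-culture in lineage 22, 55.4, 57.1 and 53.8 CPM in isolation and 117, 118 and 107 CPM in co-culture in lineage 35, and 101, 98.7 and 101 CPM in isolation and 113, 115 and 121 CPM in co-culture in lineage 45, with no overlap between conditions. The changes were 0.43 ± 0.06, 1.04 ± 0.07 and 0.22 ± 0.06. PFKP, the most abundant of the 3 per length, went from 607, 631 and 656 to 726, 739 and 842 CPM in lineage 22 (0.28 ± 0.08), from 444, 417 and 442 to 521, 492 and 491 CPM in lineage 35 (0.21 ± 0.08), and was at 541, 506 and 514 CPM in isolation and 464, 545 and 539 CPM in co-culture in lineage 45. PFKL was at 110.3, 127 and 126 CPM in isolation and 138, 138 and 145 CPM in co-culture in lineage 22, 131, 129.5 and 143 CPM in isolation and 117, 109 and 117 CPM in co-culture in lineage 35, and 144, 132 and 125 CPM in isolation and 110.0, 122 and 139 CPM in co-culture in lineage 45. Its changes of 0.21 ± 0.09 in lineage 22 and -0.24 ± 0.09 in lineage 35 were called in opposite directions. The PFKL calls rested on single libraries: that of lineage 22 was lost without isolation replicate 1 or any of its co-culture replicates (adjusted p up to 0.19) and that of lineage 35 without isolation replicate 3 or co-culture replicate 2 (up to 0.087). The PFKP call of lineage 35 was lost without isolation replicate 2 or co-culture replicate 1 (up to 0.087).

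The PFKFB enzymes make and remove fructose-2,6-bisphosphate, the strongest activator of phosphofructokinase. PFKFB3, the form most biased to making it, rose in lineages 35 and 45 (changes of 0.55 ± 0.09 and 0.36 ± 0.09), and its mean level in isolation and co-culture was 54.4 and 79.7 CPM and 75.6 and 97.1 CPM. PFKFB4 was also called in these lineages (0.46 ± 0.19 and 0.54 ± 0.19). Its call in lineage 35 was lost without isolation replicate 1 or 2 or co-culture replicate 1 or 3 (adjusted p up to 0.16), and in lineage 45 without isolation replicate 3 or co-culture replicate 1 or 3 (up to 0.13). PFKFB2 rose in lineage 35 (0.59 ± 0.13) and was not called in lineages 22 and 45 (-0.14 ± 0.13 and -0.28 ± 0.13).

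The change of largest size that was called in all 3 lineages was that of ALDOC, the brain-type aldolase. It was at 5.52, 5.42 and 6.96 CPM in isolated lineage 22 and 26, 20 and 31.9 CPM in co-culture. Lineage 35 went from 1.52, 1.86 and 2.33 to 20.4, 12.3 and 19.4 CPM, and lineage 45 from 4.76, 4.38 and 3.66 to 27.9, 14.7 and 26.2 CPM. Every co-culture library lay above every isolation library of the table. The log2 changes were 2.12 ± 0.25 (adjusted p = 3.9e-06, edgeR), 3.19 ± 0.29 (6e-08) and 2.43 ± 0.26 (2.9e-06), or 4.34-fold, 9.11-fold and 5.38-fold. ALDOA, the muscle-type form that makes up most aldolase RNA here, rose far less. It was at 706, 817 and 818 CPM in isolation and 1069.8, 1105 and 1208 CPM in co-culture in lineage 22, 700.4, 706 and 802 CPM in isolation and 1223, 969 and 981 CPM in co-culture in lineage 35, and 825, 790.1 and 765 CPM in isolation and 999.95, 1026 and 1035 CPM in co-culture in lineage 45, for changes of 0.53 ± 0.09, 0.52 ± 0.09 and 0.36 ± 0.09. The log2 ratio of ALDOC to ALDOA therefore went from -7.04 ± 0.18 to -5.46 ± 0.29 (SD, n = 3) in lineage 22, from -8.62 ± 0.22 to -5.95 ± 0.32 in lineage 35, and from -7.55 ± 0.14 to -5.53 ± 0.52 in lineage 45.

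The promoters of this pair and of the lactate dehydrogenase pair are shown because in each pair 1 isoenzyme moved much more than its partner. They are the 250 bases upstream of the RefSeq transcription start (GRCh38.p14), on the strand of the gene: ALDOC at chr17:28576896-28577145 on the minus strand, ALDOA at chr16:30064029-30064278 on the plus strand, LDHB at chr12:21657843-21658092 on the minus strand and LDHA at chr11:18394313-18394562 on the plus strand. Capitals mark 4 motifs searched on both strands: the hypoxia response cores ACGTG and GCGTG, the E-box CACGTG, which contains an ACGTG, and the sterol response element core TCACNCCAC.
ALDOC: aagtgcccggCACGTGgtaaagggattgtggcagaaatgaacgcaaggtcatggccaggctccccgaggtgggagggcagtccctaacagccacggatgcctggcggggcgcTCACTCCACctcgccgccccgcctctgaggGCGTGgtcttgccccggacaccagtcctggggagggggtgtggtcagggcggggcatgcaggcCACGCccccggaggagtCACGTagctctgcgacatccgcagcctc
ALDOA: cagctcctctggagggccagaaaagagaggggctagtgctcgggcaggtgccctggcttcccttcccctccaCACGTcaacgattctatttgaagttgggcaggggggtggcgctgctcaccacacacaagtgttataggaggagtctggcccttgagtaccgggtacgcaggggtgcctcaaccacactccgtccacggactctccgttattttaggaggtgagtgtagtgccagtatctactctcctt
LDHB: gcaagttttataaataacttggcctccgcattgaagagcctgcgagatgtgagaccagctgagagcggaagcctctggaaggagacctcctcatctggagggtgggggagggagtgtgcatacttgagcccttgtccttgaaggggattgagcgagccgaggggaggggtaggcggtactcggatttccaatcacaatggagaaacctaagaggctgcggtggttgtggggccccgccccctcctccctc
LDHA: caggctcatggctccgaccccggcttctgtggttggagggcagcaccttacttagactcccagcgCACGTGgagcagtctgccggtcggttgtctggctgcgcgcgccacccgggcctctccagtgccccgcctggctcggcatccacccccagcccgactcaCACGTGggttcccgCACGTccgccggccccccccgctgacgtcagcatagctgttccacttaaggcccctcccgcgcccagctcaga
ALDOC was the 1 gene of 29 with a matched RefSeq promoter that held the sterol response core, which 0.883% of 35116 promoters of this length hold; it lies at -138 to -130 from the start. The E-box was in 4 of the 29 (ALDOC, GAPDH, LDHA and PDHB) and in 6.34% of all promoters. ACGTG was in 10 of 29 against 18.5%, and GCGTG in 11 of 29 against 32.2%. Other motifs were searched but not marked. The GC box GGGCGG was in 20 of 29 against 42.6%, CCAAT in 10 of 29 against 32.0%, and TATAAA in 3 of 29 against 10.7%. LDHB held none of the 4 marked motifs in this window, and ALDOA held 1 ACGTG. These matches describe letters in the reference and not bound sites. For each gene only 1 RefSeq start, the first listed, was searched. The windows of ALDOC and LDHB lie within the annotated span of their genes, and those of ALDOA and LDHA run into it. Other starts were not searched.

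Among the enzymes below aldolase, TPI1, GAPDH and PGAM1 rose in each lineage. GAPDH, which oxidizes glyceraldehyde-3-phosphate, was at 4033, 4691 and 4490.4 CPM in isolated and 6803, 7117 and 7248 CPM in co-cultured lineage 22, at 3191, 3280.4 and 3684 CPM in isolation and 7430.4, 6361 and 6238 CPM in co-culture in lineage 35, and at 5363, 5246 and 5124 CPM in isolation and 6137, 6469.6 and 6504 CPM in co-culture in lineage 45. The conditions did not overlap in any lineage, and the changes were 0.68 ± 0.08, 0.98 ± 0.08 and 0.28 ± 0.08. TPI1, which interconverts the 2 triose phosphates, changed by 0.36 ± 0.10, 0.84 ± 0.10 and 0.28 ± 0.10, from mean levels of 880.0, 617 and 899 CPM. The TPI1 call of lineage 22 was lost without co-culture replicate 3 (adjusted p = 0.051, edgeR), and that of lineage 45 without any isolation replicate or co-culture replicate 2 or 3 (up to 0.1). PGAM1, the phosphoglycerate mutase, changed by 0.47 ± 0.08, 0.39 ± 0.08 and 0.38 ± 0.08. GAPDH has 62 named pseudogenes in the annotation and PGAM1 has 13, so reads of near-identical copies may be split between them.

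PGK1, the first ATP-forming enzyme, moved in opposite directions. It was at 787, 996 and 994 CPM in isolated lineage 22 and 626, 518 and 593 CPM in co-culture, a fall (-0.68 ± 0.11, adjusted p = 5e-05, edgeR). It was at 706, 688 and 715 CPM in isolation and 972, 783 and 872 CPM in co-culture in lineage 35, where it was called higher (0.32 ± 0.11), and at 544, 578 and 526 CPM in isolation and 758, 551 and 613 CPM in co-culture in lineage 45 (0.22 ± 0.11, not called). The difference between the changes of lineages 22 and 35 was -0.99 ± 0.16. The call of lineage 35 was lost without isolation replicate 2 or co-culture replicate 1 (adjusted p up to 0.1).

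The enolases convert 2-phosphoglycerate to phosphoenolpyruvate. ENO1, the common form, was at 2128, 2317 and 2271 CPM in isolation and 3256, 3276 and 3678 CPM in co-culture in lineage 22, 3087, 3005 and 3377 CPM in isolation and 3302, 2669 and 2706 CPM in co-culture in lineage 35, and 2417, 2203 and 2151 CPM in isolation and 2871, 2775 and 2846 CPM in co-culture in lineage 45. It rose in lineages 22 and 45 (0.60 ± 0.09 and 0.33 ± 0.09) and was at -0.13 ± 0.09 in lineage 35. ENO2, the neuronal form, was at 156, 170.3 and 167 CPM in isolation and 152, 134 and 146 CPM in co-culture in lineage 22, 88.7, 83.2 and 92.2 CPM in isolation and 117, 111 and 112 CPM in co-culture in lineage 35, and 203, 198 and 193 CPM in isolation and 163, 145 and 172 CPM in co-culture in lineage 45. It was called in each lineage, lower in 22 and 45 (-0.19 ± 0.07 and -0.31 ± 0.07) and higher in 35 (0.36 ± 0.08). The call of lineage 22 was lost without isolation replicate 2 or 3, co-culture replicate 2, or replicate 3 of co-cultured lineage 35, which enters the shared fit (adjusted p up to 0.16). ENO3, the muscle form, was low throughout. It was at 3.85, 3.46 and 3.51 CPM in isolated and 2.1, 1.67 and 1.51 CPM in co-cultured lineage 22, at 3.91, 3.93 and 4.98 CPM in isolation and 1.04, 1.55 and 1.53 CPM in co-culture in lineage 35, and at 3.5, 3.7 and 3.66 CPM in isolation and 2.23, 1.49 and 2.32 CPM in co-culture in lineage 45. Every co-culture library lay below every isolation library, and the changes were -1.03 ± 0.19, -1.63 ± 0.19 and -0.84 ± 0.18 (adjusted p = 0.00012, 3e-07 and 0.0011, edgeR). ENO3 overlaps PFN1 on the opposite strand, and the sources used here do not say whether counting used strand. PKM, pyruvate kinase, rose in lineage 22 (0.46 ± 0.12) and fell in lineage 35 (-0.37 ± 0.12); the latter call was lost without isolation replicate 3 (adjusted p = 0.069).

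At the lactate step the LDHB subunit rose and LDHA was not called. LDHA was at 1747, 2276 and 2313 CPM in isolation and 2065, 1964 and 2491 CPM in co-culture in lineage 22, 1728, 1830.2 and 2039.7 CPM in isolation and 2156, 1796 and 1896 CPM in co-culture in lineage 35, and 1780.4, 2063 and 1933 CPM in isolation and 2235, 2104 and 1905 CPM in co-culture in lineage 45, with overlap in each. Its changes were 0.04 ± 0.11, 0.06 ± 0.11 and 0.11 ± 0.11 (adjusted p = 0.77, 0.64 and 0.45, edgeR). LDHB, whose subunit is classed as favouring the conversion of lactate to pyruvate, was at 572, 629.7 and 564 CPM in isolated and 882, 929.8 and 1084 CPM in co-cultured lineage 22. It was at 446, 426 and 457 CPM in isolation and 1081, 938 and 900.3 CPM in co-culture in lineage 35, and 729, 698 and 717 CPM in isolation and 960.3, 1013 and 918 CPM in co-culture in lineage 45. Every co-culture library was above every isolation library of the table, and the 3 co-culture groups had close means of 965, 973 and 964 CPM. The changes were 0.71 ± 0.09, 1.13 ± 0.09 and 0.43 ± 0.09 (adjusted p = 1.1e-06, 5.3e-10 and 0.00049). The log2 ratio of LDHB to LDHA went from -1.83 ± 0.21 (SD, n = 3) to -1.17 ± 0.08 in lineage 22, from -2.07 ± 0.10 to -1.002 ± 0.07 in lineage 35, and from -1.43 ± 0.14 to -1.11 ± 0.10 in lineage 45.

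Of the lactate carriers, SLC16A3 rose in each lineage and SLC16A1 was close to absent. SLC16A3 was at 522, 546 and 521 CPM in isolation and 702, 675 and 578 CPM in co-culture in lineage 22, 421, 405 and 439 CPM in isolation and 673, 539 and 573 CPM in co-culture in lineage 35, and 455, 423 and 427 CPM in isolation and 505, 518 and 590.5 CPM in co-culture in lineage 45. The changes were 0.30 ± 0.09, 0.50 ± 0.09 and 0.31 ± 0.09; the last was lost without co-culture replicate 3 of lineage 45 (adjusted p = 0.056, edgeR). SLC16A1 was at 1.12, 0.898 and 0.837 CPM in isolation and 0.402, 0.293 and 0.101 CPM in co-culture in lineage 22, at 0.129, 0.305 and 0.0934 CPM in isolation and 0.924, 1.49 and 0.835 CPM in co-culture in lineage 35, and at 0.392, 0.189 and 0.551 CPM in isolation and 0.566, 0.790 and 0.509 CPM in co-culture in lineage 45. It was called lower in lineage 22 (-1.79 ± 0.43, adjusted p = 0.0014) and higher in lineage 35 (2.57 ± 0.45, adjusted p = 4.9e-05), and these levels rest on 98 and 27 counts summed over the 3 libraries of lineage 22 and 18 and 112 of lineage 35. Without isolation replicate 2, the change in lineage 35 was 3.25. BSG (basigin), the chaperone that brings both carriers to the membrane, rose in lineages 22 and 35 (0.50 ± 0.08 and 0.41 ± 0.08) and was at 0.06 ± 0.08 in lineage 45.

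At the pyruvate dehydrogenase step, PDHB rose and PDP1 fell in all 3 lineages. PDHB, the beta subunit of the E1 enzyme, was at 120.5, 125 and 123 CPM in isolation and 188, 176 and 207 CPM in co-culture in lineage 22, 114, 116 and 132 CPM in isolation and 149, 145 and 141 CPM in co-culture in lineage 35, and 123, 131 and 127 CPM in isolation and 187, 167 and 156 CPM in co-culture in lineage 45, for changes of 0.63 ± 0.08, 0.26 ± 0.08 and 0.42 ± 0.08. PDHA1, the alpha subunit with the regulated serines, was at 143, 152 and 144 CPM in isolation and 99.9, 100.4 and 119 CPM in co-culture in lineage 22, 145, 147 and 149 CPM in isolation and 95.4, 100.03 and 92.9 CPM in co-culture in lineage 35, and 147, 147 and 149.8 CPM in isolation and 147, 163 and 150.1 CPM in co-culture in lineage 45. It fell in lineages 22 and 35 (-0.46 ± 0.07 and -0.61 ± 0.07) and was at 0.05 ± 0.07 in lineage 45. PDP1, the catalytic phosphatase that switches the complex on, was at 77.2, 74.1 and 88 CPM in isolated and 43.3, 37.3 and 28.9 CPM in co-cultured lineage 22. It was at 117, 127 and 93.3 CPM in isolation and 49.1, 44.9 and 49.2 CPM in co-culture in lineage 35 and at 58.4, 65.6 and 63.9 CPM in isolation and 47.4, 37.6 and 33.2 CPM in co-culture in lineage 45. No co-culture library reached the isolation libraries, and the changes were -1.13 ± 0.14, -1.24 ± 0.14 and -0.67 ± 0.14 (adjusted p = 3.5e-06, 4.5e-07 and 0.0011, edgeR).

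The 4 kinases that switch the complex off did not move together. PDK1 fell in lineages 22 and 35 and was at -0.01 ± 0.12 in lineage 45; its libraries were at 25.5, 28.9 and 26.1 CPM in isolation and 19.7, 15.3 and 16.1 CPM in co-culture, 29.8, 30.3 and 26.9 CPM in isolation and 17.2, 16.1 and 19 CPM in co-culture, and 20.8, 20.3 and 20.1 CPM in isolation and 25.1, 17.1 and 18.5 CPM in co-culture, in the order 22, 35 and 45. The 2 falls were -0.65 ± 0.12 and -0.74 ± 0.12. PDK2 was at 32.6, 29.5 and 34.3 CPM in isolation and 34.2, 31.8 and 34.6 CPM in co-culture, 33.3, 32.7 and 38.5 CPM in isolation and 31.2, 29 and 26.4 CPM in co-culture, and 30.1, 30.4 and 28.9 CPM in isolation and 32.2, 31.7 and 33.9 CPM in co-culture, in the same order, with a call in lineage 35 (-0.27 ± 0.09) that was lost without isolation or co-culture replicate 3 (adjusted p up to 0.067, edgeR). PDK3 went in opposite directions. It was at 19.5, 23.1 and 24.1 CPM in isolated and 12.6, 9.76 and 9.05 CPM in co-cultured lineage 22, at 12.1, 11.4 and 12.4 CPM in isolation and 10.6, 9.71 and 7.98 CPM in co-culture in lineage 35, and at 16.5, 15.4 and 13.4 CPM in isolation and 21.9, 19.8 and 20.1 CPM in co-culture in lineage 45. It fell in lineage 22 (-1.09 ± 0.13) and rose in lineage 45 (0.45 ± 0.12), and the difference between these changes was -1.54 ± 0.18 (adjusted p = 8.8e-06). Its call in lineage 35 (-0.34 ± 0.13) was lost without isolation replicate 1 or 3 or co-culture replicate 3 (adjusted p up to 0.15). PDK4, the kinase induced by fasting and fatty acids, was at 4.79, 4.01 and 5.6 CPM in isolation and 4.56, 3.66 and 3.26 CPM in co-culture in lineage 22 and 2.72, 5.35 and 4.38 CPM in isolation and 4.33, 3.57 and 2.6 CPM in co-culture in lineage 45, with overlap. In lineage 35 it was at 0.807, 1.69 and 1.46 CPM in isolation, the lowest 3 libraries of the table, and 5.81, 4.96 and 4.67 CPM in co-culture (1.95 ± 0.27, adjusted p = 3.6e-06).

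**Figure D3:**
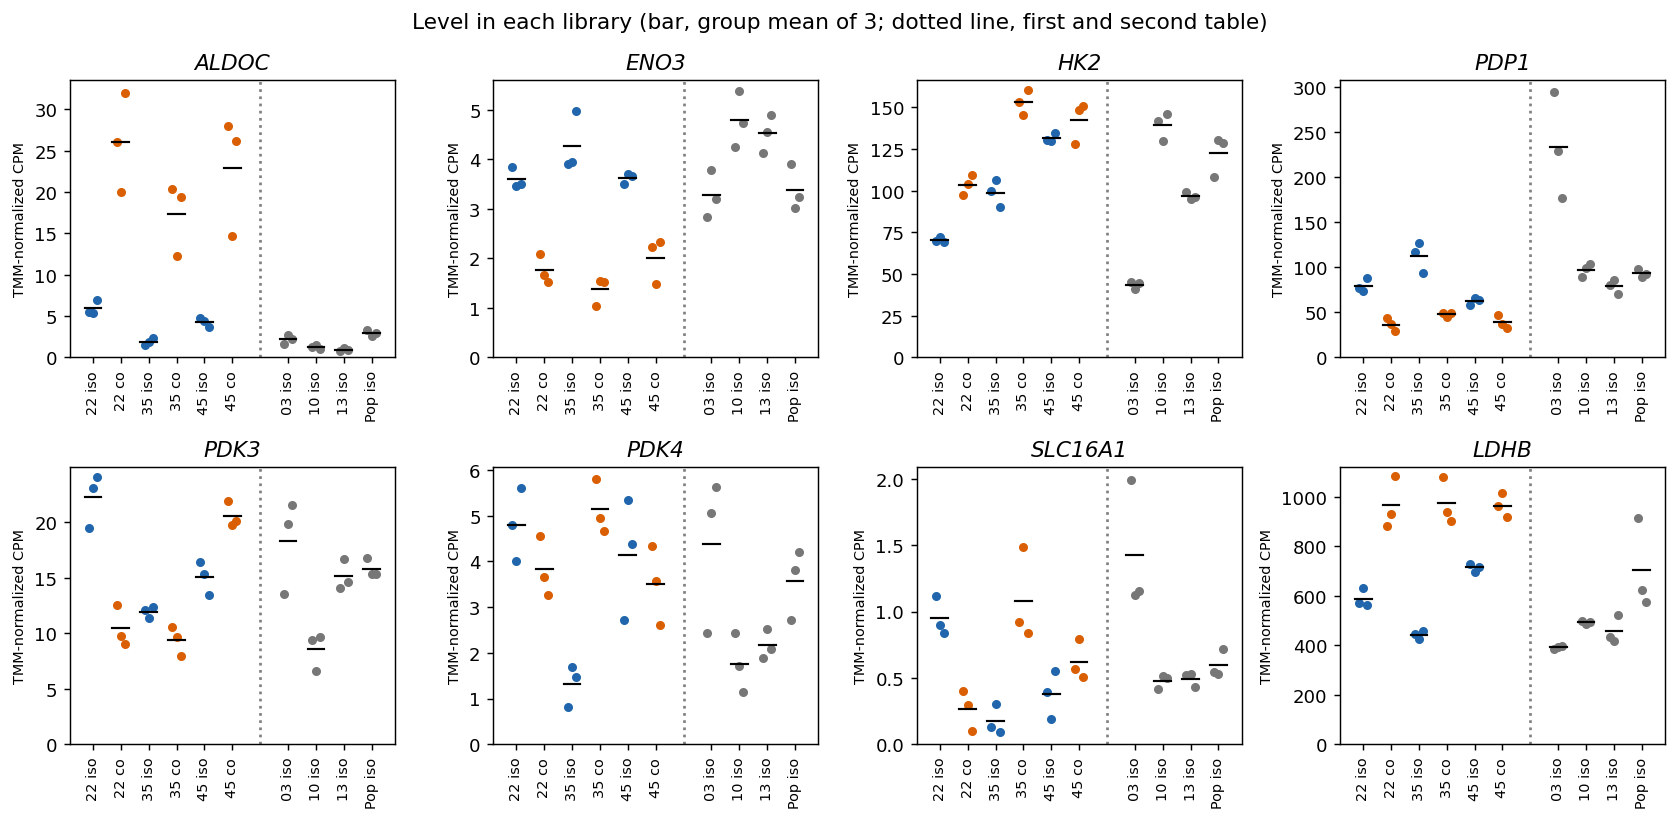
TMM-normalized CPM of 8 genes in each library, with blue for isolation and orange for co-culture in the first table, grey for the second table to the right of the dotted line, and a bar at each group's mean of 3. ALDOC and LDHB are higher and ENO3 and PDP1 lower in every co-culture group than in its isolation group, and lineage 03 stands apart for HK2, PDP1 and SLC16A1.

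The change with co-culture differed between lineage labels for 25 of the 33 genes (interaction F test in edgeR), where 55.2% of all genes passed. Some of these genes moved with the genes around them. For each gene, the median change of up to 25 tested protein-coding genes on either side, other members left out, was taken from the same fit. SLC2A3, PFKM, TPI1, GAPDH, ENO2 and LDHB lie on chromosome 12. Their neighbour medians were 0.51 to 0.87 in lineage 35, where LDHB changed by 1.13 (0.87 for its neighbours), GAPDH by 0.98 (0.68) and ENO2 by 0.36 (0.57). In lineages 22 and 45 the neighbours of LDHB were at -0.27 and -0.11, opposite in sign to its changes of 0.71 and 0.43. PGK1, PDK3 and PDHA1 lie on the X chromosome. In lineage 22 they changed by -0.68, -1.09 and -0.46, with neighbours at -0.95, -0.99 and -1.03. In lineage 35 they changed by 0.32, -0.34 and -0.61, with neighbours at 0.26, -0.65 and -0.93. PKM and ENO1 in lineage 35 were at -0.37 (called) and -0.13 (not called), and their neighbours at -0.62 and -0.48. The genes with the largest shared changes stood well off their neighbours: those of ALDOC were at 0.25, 0.09 and 0.14, those of ENO3 at 0.25, 0.15 and 0.06, and those of PDP1 at -0.08, 0.14 and 0.05 in lineages 22, 35 and 45. The part of the neighbours' shift in the values of these genes was not tested.

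**Figure D4:**
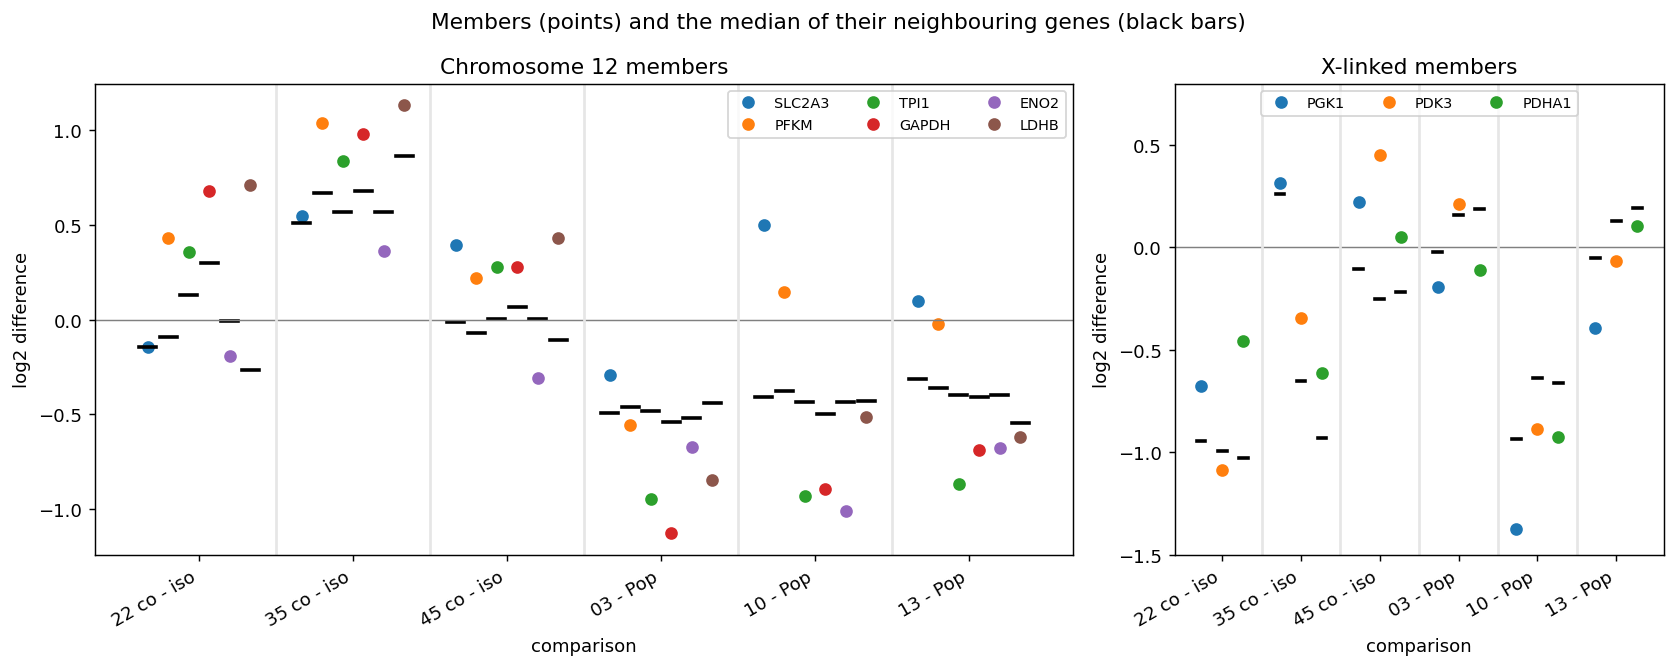
Log2 difference of the chromosome 12 genes (left) and X-linked genes (right) as points, with black bars for the median of their neighbouring genes, in 3 co-culture comparisons (co - iso) and 3 comparisons with Pop. The X-linked points and bars lie well below 0 in lineage 22 co-culture and in lineage 10 against Pop, and the chromosome 12 bars lie above 0.5 in lineage 35 and below -0.3 in all 3 comparisons with Pop.

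In isolation, the lineages differed in these genes about as often as over all genes. Between lineages 22 and 35, 14 genes were higher in 22 and 7 lower, with 32.2% and 31.4% of all genes. Between 22 and 45, 7 were higher in 22 and 7 lower, with 18.6% and 19.8%. Between 35 and 45, 8 were higher in 35 and 13 lower, with 24.3% and 27.6%; the 8 became 5 without isolation replicate 3 of lineage 35. Lineage 22 had the lowest GPI, at -1.28 ± 0.07 relative to lineage 35 and -1.09 ± 0.07 relative to lineage 45, where its neighbours were at -0.56 and -0.48. It also had the lowest HK2, -0.49 ± 0.08 against lineage 35 and -0.90 ± 0.08 against lineage 45, and the highest SLC2A3, 1.19 ± 0.09 above lineage 35. Lineage 35 had the lowest ALDOC (-1.16 ± 0.30 against lineage 45), ENO2 (-1.17 ± 0.08), PFKM (-0.85 ± 0.06) and PDK4 (-1.64 ± 0.27). ALDOC was 1.65 ± 0.29 higher in lineage 22 than in 35, and between 22 and 45 it was at 0.49 ± 0.27 (adjusted p = 0.16, edgeR). PDK3 ran in the order 22, 45, 35, with 0.56 ± 0.12 between the first and second; the difference of -0.34 ± 0.13 between 35 and 45 was lost without isolation replicate 1 or 2 of either lineage (adjusted p up to 0.12).

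In co-culture, fewer of the 33 genes were called between the lineages. Between 22 and 35, 8 were higher in 22 and 7 lower, with 15.6% and 15.5% of all genes. Between 22 and 45, 5 were higher and 4 lower, with 13.2% and 12%. Between 35 and 45, 2 were higher and 5 lower, with 6.42% and 6.28%. The counts of higher genes moved when single libraries were left out. The first went to 5 without co-culture replicate 3 of lineage 22 or co-culture replicate 2 or 3 of lineage 35. The second went to 3 without co-culture replicate 3 of lineage 22 or replicate 1 or 2 of lineage 45, and the third to 1 without co-culture replicate 1 of lineage 35 or 2 of lineage 45. With the 2 groups 22 and 45 fitted alone and the replicate number as a block, 3 in place of 5 genes were higher and 5 in place of 4 lower. ALDOC, LDHB, GAPDH and TPI1 were called in none of the 3 comparisons. Lineage 22 remained lowest in GPI (-0.60 ± 0.07 and -0.60 ± 0.07) and HK2 (-0.56 ± 0.08 and -0.46 ± 0.08) against 35 and 45, and highest in PFKP (0.62 ± 0.08 and 0.58 ± 0.08). PDK3 was lower in co-cultured lineages 22 and 35 than in 45 (-0.98 ± 0.13 and -1.13 ± 0.13), and so was PDHA1 (-0.53 ± 0.07 and -0.68 ± 0.07).

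In the second table, all 3 isolated lineages had lower levels of much of the pathway than Pop. Lineage 03 had 5 of the 33 genes higher and 19 lower, with 23.2% and 25.5% of all genes. Lineage 10 had 2 higher and 18 lower, with 18.8% and 23.5%. Lineage 13 had 3 higher and 16 lower, with 21% and 24.2%. The median log2 differences of the 33 were -0.37, -0.33 and -0.28, against -0.03, -0.02 and -0.01 over all genes tested. These comparisons share the 3 Pop libraries, so they are not independent of each other. All 33 genes differed somewhere among the 4 groups (F test in edgeR), where 75.9% of all genes did.

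GAPDH, TPI1, ENO1, ENO2, LDHA and LDHB were lower than Pop in each lineage. GAPDH was at 5115, 4846 and 4493 CPM in Pop, 1905, 2354 and 2344 CPM in lineage 03, 2630.3, 2656 and 2479 CPM in lineage 10 and 2824, 2946 and 3191 CPM in lineage 13. All Pop libraries were above all others, and the differences from Pop were -1.13 ± 0.10, -0.90 ± 0.10 and -0.69 ± 0.10. TPI1 was -0.95 ± 0.14, -0.93 ± 0.14 and -0.87 ± 0.14, ENO1 -0.56 ± 0.10, -0.55 ± 0.10 and -0.67 ± 0.10, and ENO2 -0.67 ± 0.08, -1.01 ± 0.08 and -0.68 ± 0.08 in lineages 03, 10 and 13. ENO2 libraries were at 132, 139 and 129 CPM in Pop, 75.3, 88.4 and 87.2 CPM in 03, 72.4, 65.2 and 60.8 CPM in 10 and 82.1, 83.4 and 84.2 CPM in 13. LDHA was at 2334, 2078 and 1901 CPM in Pop, 1477, 1857 and 1596 CPM in 03, 1547, 1519.9 and 1522 CPM in 10 and 1366, 1415 and 1523 CPM in 13, for differences of -0.36 ± 0.10, -0.46 ± 0.10 and -0.55 ± 0.10. LDHB was at 916, 624 and 573 CPM in Pop, 386, 392 and 396 CPM in 03, 499, 487 and 495 CPM in 10 and 432, 418 and 522 CPM in 13, for differences of -0.85 ± 0.14, -0.51 ± 0.14 and -0.62 ± 0.14. Pop replicate 1 was the highest of its group in GAPDH, TPI1, ENO1, LDHA and LDHB, and stood apart over all genes, with a chi-square per gene of 53.4 and 73.3 against replicates 2 and 3, which differed by 6.36. Without it the differences of LDHB were -0.61, -0.28 and -0.41, those of TPI1 -0.75, -0.73 and -0.69 and those of ENO1 -0.44, -0.43 and -0.57, all called. With each library left out in turn, LDHA ran from -0.45 to -0.28 in lineage 03, -0.52 to -0.38 in 10 and -0.63 to -0.49 in 13. GAPDH ran from -1.18 to -1.04, -0.93 to -0.85 and -0.75 to -0.65. SLC16A3, at 438, 447 and 451 CPM in Pop, was lower in each lineage (-0.53 ± 0.08, -0.91 ± 0.09 and -0.51 ± 0.08), as were ALDOA (-0.55 ± 0.09, -0.51 ± 0.09 and -0.33 ± 0.09), PGAM1 (-0.36 ± 0.08, -0.27 ± 0.08 and -0.35 ± 0.08) and PFKFB2 (-0.37 ± 0.10, -0.49 ± 0.10 and -0.59 ± 0.10). The neighbour medians of the 6 chromosome 12 genes were also below 0, between -0.31 and -0.55.

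Lineage 03 combined little HK2 with much PDP1. HK2 was at 45.6, 40.9 and 44.7 CPM in lineage 03, against 108, 130.3 and 129 CPM in Pop, 142, 130.2 and 146 CPM in lineage 10 and 99.5, 95.3 and 96.4 CPM in lineage 13. No other library of the table was as low, and the difference from Pop was -1.49 ± 0.08 (adjusted p = 1.5e-08, edgeR), with neighbours at -0.13. HK1 was at 321, 331 and 303 CPM in lineage 03, 287, 265 and 255 CPM in Pop, 285, 276 and 275 CPM in 10 and 238, 238 and 271 CPM in 13. The log2 ratio of HK2 to HK1 was -2.87 ± 0.14 in lineage 03 and -1.14 ± 0.23 in Pop (SD, n = 3). PDP1 was at 294, 229 and 176 CPM in lineage 03, 98.2, 89.8 and 93.1 CPM in Pop, 89.7, 99.1 and 103 CPM in 10 and 80.8, 85.7 and 70.6 CPM in 13, and its difference from Pop was 1.31 ± 0.14 (adjusted p = 7.6e-06), with neighbours at 0.26. SLC16A1 was also highest there, at 1.99, 1.12 and 1.15 CPM against 0.548, 0.527 and 0.714 CPM in Pop, 0.417, 0.510 and 0.496 CPM in 10 and 0.523, 0.528 and 0.429 CPM in 13 (1.24 ± 0.26). PFKM (-0.56 ± 0.08), PFKFB3 (-0.54 ± 0.08), PFKFB4 (-0.64 ± 0.19) and GPI (-0.40 ± 0.08) were below Pop in lineage 03, whereas PFKL (0.38 ± 0.07) and PDK2 (0.46 ± 0.10) were above it. The small PGK1 difference of lineage 03 (-0.19 ± 0.07) was lost without replicate 1 or 3 of lineage 03, any replicate of lineage 10, replicate 1 or 2 of lineage 13 or replicate 1 or 2 of Pop (adjusted p up to 0.12), and that of HK1 (0.24 ± 0.07) without replicate 2 of lineage 03 (0.061).

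Lineage 10 was set apart by the X-linked genes. PGK1 was at 298, 298 and 303 CPM in lineage 10, against 809.7, 784 and 734 CPM in Pop, 644, 735 and 656 CPM in lineage 03 and 582, 582 and 606 CPM in lineage 13. PDHA1 was at 73.8, 73.8 and 76.2 CPM in lineage 10, 171, 129 and 124 CPM in Pop, 136, 132 and 125 CPM in 03 and 146, 148 and 162 CPM in 13. PDK3 was at 9.43, 6.64 and 9.69 CPM in lineage 10, 16.8, 15.4 and 15.4 CPM in Pop, 13.5, 19.9 and 21.6 CPM in 03 and 14.1, 16.7 and 14.6 CPM in 13. For each gene the 3 libraries of lineage 10 were below all others of the table. Their differences from Pop were -1.37 ± 0.07, -0.92 ± 0.10 and -0.88 ± 0.17, and those of their neighbours -0.93, -0.66 and -0.64. Pop replicate 1 was the highest of its group in PDHA1, whose difference ran from -0.99 to -0.77 with each library left out in turn. SLC2A1 was lower in lineages 03 and 10 (-0.67 ± 0.10 and -0.73 ± 0.10) and at -0.03 ± 0.10 in lineage 13, with libraries at 459, 611 and 588 CPM in Pop, 323, 367 and 349.7 CPM in 03, 329.7, 341 and 331 CPM in 10 and 547, 574 and 505 CPM in 13. PKM was lower in lineage 10 (-0.57 ± 0.09).

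Of the 2 higher calls of lineage 10, SLC2A3 (0.50 ± 0.16) was lost without replicate 1 or 2 of lineage 10 or Pop replicate 1 (adjusted p up to 0.094, edgeR), and ENO3 (0.50 ± 0.15) without replicate 2 of lineage 10 or of Pop (0.074). The count of 2 became 1 without replicate 1 of lineage 10 or replicate 2 of Pop, and 0 without replicate 2 of lineage 10. SLC2A3 was at 49, 46.9 and 41.4 CPM in lineage 10, 25.4, 35.6 and 36.2 CPM in Pop, 21.5, 25.2 and 32.8 CPM in 03 and 30.8, 32.3 and 41 CPM in 13. ENO3 was at 4.25, 5.37 and 4.74 CPM in lineage 10, 3.9, 3.02 and 3.24 CPM in Pop, 2.84, 3.78 and 3.19 CPM in 03 and 4.13, 4.56 and 4.89 CPM in 13. PDK4, at 2.44, 1.71 and 1.15 CPM in lineage 10, 2.71, 3.81 and 4.2 CPM in Pop, 2.44, 5.06 and 5.62 CPM in 03 and 1.89, 2.53 and 2.09 CPM in 13, was called lower in lineage 10 (-1.01 ± 0.31). That call was lost without replicate 2 or 3 of lineage 10 or of Pop (adjusted p up to 0.085).

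In lineage 13, ALDOC had the largest difference from Pop. It was at 0.843, 1.14 and 0.887 CPM in lineage 13 and 1.25, 1.53 and 0.991 CPM in lineage 10, below all of 3.38, 2.64 and 2.92 CPM in Pop, whereas lineage 03 was at 1.59, 2.72 and 2.22 CPM. The differences were -1.63 ± 0.23 and -1.24 ± 0.22 (adjusted p = 6.5e-05 and 0.00056, edgeR), and that of lineage 03 was -0.44 ± 0.21, not called. PFKL (0.34 ± 0.07) and PDK2 (0.36 ± 0.10) were higher in lineage 13 and PFKP lower (-0.44 ± 0.09). ENO3 (0.42 ± 0.15) lost its call without replicate 2 or 3 of lineage 13 or of Pop (adjusted p up to 0.13). PKM (-0.26 ± 0.09) lost its call without replicate 1 or 2 of lineage 13, any replicate of lineage 10, replicate 2 of lineage 03 or Pop replicate 1 (0.14). BSG (-0.16 ± 0.06) lost its call without any 1 of 11 of the 12 libraries, Pop replicate 1 being the exception (0.15).

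**Figure D5:**
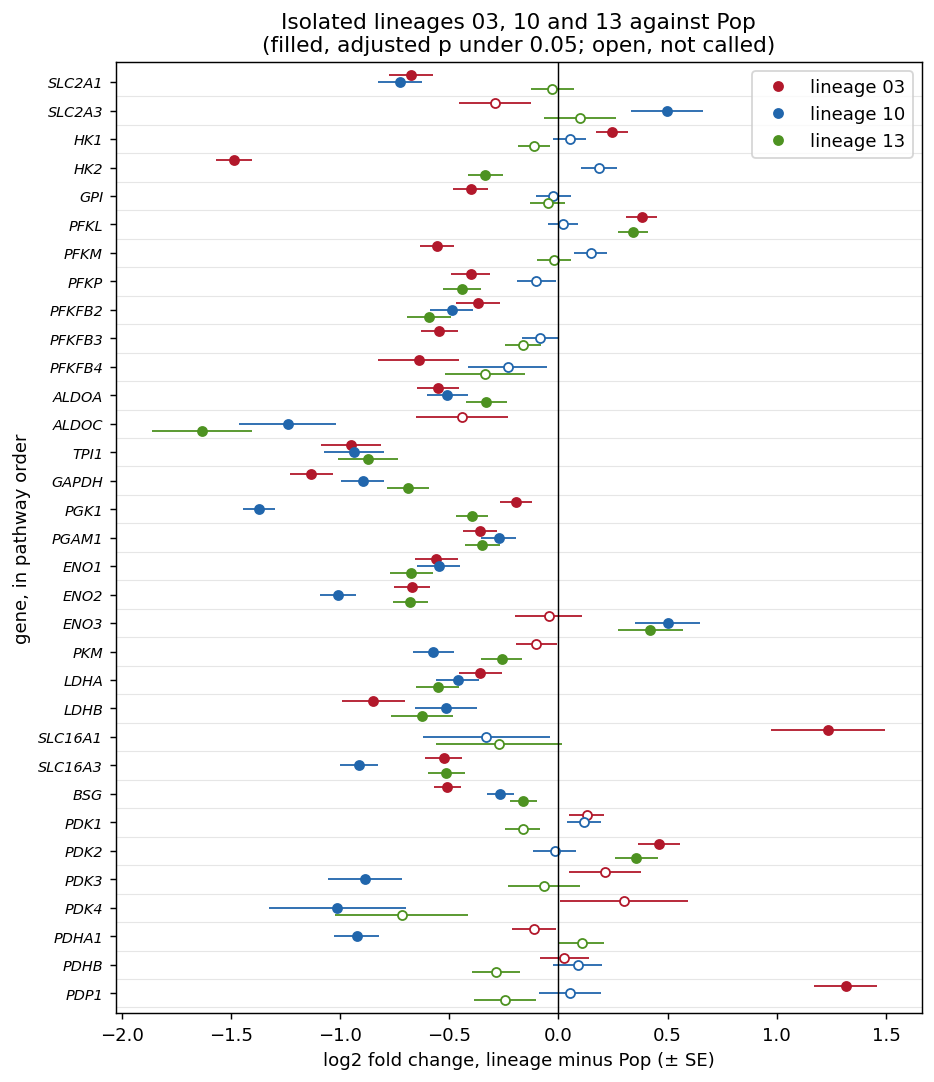
Log2 fold change of each gene between an isolated lineage (03, 10 or 13) and Pop, with its SE and 3 libraries per group; filled points passed the adjusted p threshold and open points did not. Most points lie left of 0; HK2 in lineage 03, PGK1 in lineage 10 and ALDOC in lineage 13 lie farthest left, and PDP1 and SLC16A1 in lineage 03 farthest right.

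Among the 3 lineages themselves, lineage 03 had 13 genes higher and 8 lower than lineage 10, with 26.4% and 25% of all genes, and 8 higher and 8 lower than lineage 13, with 26.1% and 27.1%. Lineage 10 had 4 higher and 9 lower than lineage 13, with 16.6% and 18%. The count of 4 became 2 without replicate 3 of lineage 10 and 7 without Pop replicate 1, which enters the shared fit. PDP1 was higher in lineage 03 than in 10 and 13 (1.26 ± 0.14 and 1.56 ± 0.15), HK2 lower (-1.67 ± 0.08 and -1.15 ± 0.08) and SLC16A1 higher (1.56 ± 0.27 and 1.51 ± 0.27). PDHA1 was -1.03 ± 0.10 and PGK1 -0.98 ± 0.07 between lineages 10 and 13. PDK4 was higher in lineage 03 than in 10 (1.31 ± 0.31), and so was PDK3 (1.10 ± 0.17).

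Genes around the pathway were read from 8 further lists, whose counts stand beside these shares of all genes. Of all genes, 27% rose and 30% fell in co-culture in lineage 22, 32.7% and 32.9% in 35, and 18.6% and 23.2% in 45. Against Pop, 23.2% were higher and 25.5% lower in lineage 03, 18.8% and 23.5% in 10, and 21% and 24.2% in 13. The medians of all genes are those given above for the same comparisons. Of 9 tested genes for other glucose transporters and hexose phosphorylation, 2 rose and 3 fell in co-culture in lineage 22, 2 rose and 3 fell in 35, and 2 rose and 1 fell in 45. The median log2 change was -0.05, -0.34 and 0.33 in lineages 22, 35 and 45. SLC2A10 was at 0.0200 CPM (2 counts over 3 libraries) in isolated and 1.75 CPM in co-cultured lineage 35, and fell in lineage 22 (-1.83 ± 0.25). SLC2A13, the proton and myo-inositol symporter, changed by -1.40 ± 0.17, 1.91 ± 0.19 and -0.77 ± 0.17, and was -4.59 ± 0.39 in lineage 03 against Pop. HKDC1, a further hexokinase, fell in lineages 22 and 35 (-0.92 ± 0.16 and -1.43 ± 0.17), and SLC2A6 rose in 22 and 45 (0.82 ± 0.11 and 0.76 ± 0.12). Against Pop, lineage 03 had 1 of the 9 higher and 1 lower, lineage 10 had 5 and 2, and lineage 13 had 1 and 3.

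Of 10 tested side enzymes and further isoenzymes, 2 rose and 1 fell in lineage 22, 6 rose and 2 fell in 35, and 4 rose and 1 fell in 45. The medians were 0.09, 0.47 and 0.16. EMB (embigin), a chaperone of monocarboxylate carriers like BSG, was at 0.0560, 0.0270 and 0.0501 CPM in isolated lineage 45 and 10.4, 9.13 and 7.19 CPM in co-culture. It was at 0.484, 0.360 and 0.529 CPM in isolation and 11.3, 11.3 and 16.1 CPM in co-culture in lineage 35, and at 8.67, 8.08 and 8.42 CPM in isolation and 9.56, 8.62 and 6.86 CPM in co-culture in lineage 22, so that co-culture was far above isolation in the first and second and overlapped in the last. In the second table EMB was at 6.19 CPM in Pop and 0.124 CPM in lineage 13. SLC16A7 (MCT2), a high-affinity lactate and pyruvate carrier, was at 0, 0.0296 and 0 CPM in lineage 03, 1 count over its 3 libraries, at 18, 25.1 and 31.3 CPM in Pop, 31, 32 and 37.6 CPM in lineage 10 and 23.6, 24.7 and 13 CPM in lineage 13. PGM2 rose in each lineage in co-culture (0.27 ± 0.10, 0.48 ± 0.10 and 0.43 ± 0.10). TIGAR, a fructose-2,6-bisphosphatase, rose in 35 and 45 (0.86 ± 0.09 and 0.23 ± 0.09), as did LDHD, the D-lactate dehydrogenase (2.07 ± 0.33 and 0.76 ± 0.29). TIGAR was lower than Pop in lineages 03, 10 and 13 (-0.74 ± 0.08, -0.58 ± 0.08 and -0.49 ± 0.08).

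Of 4 tested gluconeogenic genes, 1, 3 and 2 rose in lineages 22, 35 and 45, and the others were not called, with medians of 0.18, 0.43 and 0.22. The called genes were G6PC3 in lineage 22 (0.23 ± 0.09), PC (0.62 ± 0.10), PCK2 (0.51 ± 0.11) and FBP1 (0.35 ± 0.14) in lineage 35, and PCK2 (0.30 ± 0.11) and FBP1 (0.50 ± 0.14) in lineage 45. PC, pyruvate carboxylase, was lower than Pop in each lineage (-0.38 ± 0.07, -0.62 ± 0.07 and -1.21 ± 0.07). Of 7 tested genes for pyruvate entry, 3 rose in lineage 22, 1 rose and 2 fell in 35, and 4 rose and 1 fell in 45 (medians 0.14, -0.03 and 0.28). PDP2, the second phosphatase of the complex, rose in lineages 35 and 45, where PDP1 fell (1.02 ± 0.08 and 0.33 ± 0.08). MPC1, a subunit of the mitochondrial pyruvate carrier, fell in lineage 35 (-0.89 ± 0.13) and rose in 45 (0.50 ± 0.13), and its partner MPC2 rose in 22 and 45 (0.26 ± 0.09 and 0.40 ± 0.09). MPC2 was higher in lineage 03 than in Pop (0.74 ± 0.10) and MPC1 lower (-0.44 ± 0.14).

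Of the 8 pentose phosphate genes, 3 rose and 1 fell in lineage 22, 3 rose and 4 fell in 35, and 3 rose and 1 fell in 45, at medians of 0.15, -0.16 and 0.13. PGD rose in lineages 22 and 45 and fell in 35 (0.79 ± 0.09, 0.39 ± 0.09 and -0.27 ± 0.09), and TKT did likewise (0.62 ± 0.08, 0.22 ± 0.07 and -0.28 ± 0.07). Of 6 tested genes for glycerol phosphate and serine branches, 1 rose and 1 fell in lineage 22, 3 rose and 1 fell in 35, and 2 rose in 45 (medians 0.14, 0.36 and 0.19). PHGDH, which takes 3-phosphoglycerate into serine synthesis, was at 17.4, 20.4 and 18.2 CPM in isolation and 13, 12.8 and 11 CPM in co-culture in lineage 22, 0.323, 0.194 and 0.0934 CPM in isolation and 30.6, 23.3 and 19.9 CPM in co-culture in lineage 35, and 3.59, 2.7 and 3.88 CPM in isolation and 7.61, 11.3 and 8.41 CPM in co-culture in lineage 45. It was at 0, 0 and 0.0310 CPM in lineage 10, 7.55, 7.18 and 6.63 CPM in Pop, 9.97, 10.4 and 15.3 CPM in 03 and 1.31, 1.33 and 1.57 CPM in 13, so that isolated lineages 35 and 10 had next to none.

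Of 12 tested regulators of glycolytic transcription, 3 rose and 4 fell in lineage 22, 5 rose and 2 fell in 35, and 4 rose and 2 fell in 45, with medians of -0.18, -0.01 and -0.02. MYC rose in each (0.33 ± 0.07, 0.74 ± 0.07 and 0.48 ± 0.07), and so did MLX, the partner of the glucose sensors MondoA and ChREBP (0.65 ± 0.08, 0.50 ± 0.08 and 0.46 ± 0.08). ARRDC4, a glucose-induced target of MondoA that restrains glucose uptake, fell in each (-2.14 ± 0.23, -1.38 ± 0.20 and -0.98 ± 0.21). Its relative TXNIP, named after its values were seen, also fell (-0.86 ± 0.11, -0.52 ± 0.11 and -0.80 ± 0.11). Of 16 targets of hypoxia-inducible factor outside glycolysis, 2 rose and 10 fell in lineage 22, with 27% and 30% of all genes. In lineage 35, 5 rose and 5 fell, with 32.7% and 32.9%, and in 45, 2 rose and 2 fell, with 18.6% and 23.2%. The medians were -0.36, 0.20 and 0.06 in lineages 22, 35 and 45. ADM (adrenomedullin) rose in each (0.88 ± 0.12, 1.27 ± 0.12 and 1.15 ± 0.12), whereas VEGFA, the angiogenic growth factor, fell in each (-1.73 ± 0.11, -0.92 ± 0.11 and -0.91 ± 0.11). CA12, a membrane carbonic anhydrase, rose in 22 and 45 and fell in 35 (0.81 ± 0.09, 0.61 ± 0.09 and -1.02 ± 0.09). Against Pop, lineage 03 had 6 of the 16 higher and 7 lower, lineage 10 had 3 and 6, and lineage 13 had 12 lower (medians 0.14, -0.24 and -0.56). EGLN3, the prolyl hydroxylase that marks the factor for decay, was lower in lineages 10 and 13 (-2.74 ± 0.20 and -2.82 ± 0.20), and EPAS1, which encodes HIF-2 alpha, was lower than Pop in each (-0.62 ± 0.12, -0.43 ± 0.12 and -1.64 ± 0.12).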

How the data were processed

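RNA of 10 groups with 3 libraries each was sequenced as stranded mRNA, per the labels' protocols. Each deposited table holds estimated counts, scaled for length, for its genes: 2 tables of 26475 genes that the authors made separately with STAR 2.6.1d and Salmon 1.4.0 on GRCh38, per the submitters' processing notes. The scaling tool, the annotation and any filter are not given in the sources used here. Length scaling keeps depth but corrects for transcript length, so changes in isoform length do not appear as count changes. All libraries were assigned by their labels.

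After rounding, edgeR 4.0.16 (R 4.3.3) was run with TMM scaling, filterByExpr (minimum count 10), robust quasi-likelihood estimation on every group of a table at once without a replicate block, and Benjamini-Hochberg adjustment over the 14570 and 14638 genes tested. The SE is the size of the log2 change divided by the square root of F. The script was tested on simulated data. The genes and lists were chosen with earlier results of these data known. Every member is named. A member has its value in each library where some comparison called it at 2-fold or more or where it is the partner isoenzyme of such a gene, and up to 4 genes per further list were named by smallest p. 1 gene that this rule picks is not reported here. The labels do not state a pairing by replicate number; deviations from the group means correlated by over 0.1 at every number for 1 pair of groups, co-cultured lineages 22 and 45 (0.36, 0.25 and 0.17). Alternatives were DESeq2 1.42.0, other scalings, filters, thresholds and fits, and leaving out each library. The within-table design compares no group of the first table with one of the second. Gene positions come from GENCODE 29 and promoters from RefSeq, where 29 of 33 genes matched.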

Additional observations from a re-analysis of the deposited data

Results flagged for a closer look

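For 25 of the 33 genes (21 to 26 with 1 library left out) the change with co-culture differed between lineage labels by the interaction F test in edgeR. For each, the value below is the largest of the 3 pairwise differences between the log2 changes. In lineage 22 relative to lineage 35, the change was more positive for SLC2A1 0.47, GPI 0.67, PFKL 0.45, ENO1 0.73, PKM 0.83 and PDHB 0.37. It was more negative for SLC2A3 -0.69, PFKFB3 -0.39, PGK1 -0.99, SLC16A1 -4.36 and PDK4 -2.27. In lineage 35 relative to lineage 45, it was more positive for HK2 0.52, PFKM 0.82, PFKFB2 0.87, TPI1 0.56, GAPDH 0.70, ENO2 0.67 and LDHB 0.70, and more negative for ENO3 -0.79, PDK1 -0.72, PDK2 -0.40, PDHA1 -0.66 and PDP1 -0.57. The pairwise call of ENO3 was lost without any 1 of 4 libraries (adjusted p up to 0.067, edgeR). That of PDP1 was lost without any 1 of 5 (up to 0.092). In lineage 22 relative to lineage 45, the largest differences were BSG 0.43 and PDK3 -1.54. The largest of all, that of SLC16A1, lies between groups with mean levels of 0.950 and 0.265 CPM in lineage 22 and 0.176 and 1.08 CPM in lineage 35, and was -5.04 without isolation replicate 2 of lineage 35. Of these 25 differences, 23 involve the libraries labelled 35, as do 2 of the 3 possible pairs. Over all genes, the change was called as different for 49.6% between lineages 22 and 35. The share was 42.3% between 35 and 45 and 17.3% between 22 and 45. The libraries labelled 35 also differ in more genes between their 2 conditions than those of the other lineages. The part of this in the differences was not tested.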

How the results depend on the processing

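Of the counts of called members recomputed under alternatives, 899 stayed within 1.5 times the value given and 45 did not; of the single values, 7141 kept their direction and call, 385 kept the direction but lost the call, 1 gained it (ALDOC between isolated lineages 22 and 45, with those groups fitted alone), and 0 changed sign. Asking for more than 1.2-fold (glmTreat) lowered the lower calls of lineage 35 in co-culture to 4, those of lineage 45 to 3 higher and 2 lower, and the genes higher in all 3 lineages to 2. Between isolated lineages it left 4 higher and 3 lower for 22 against 45, and 4 higher for 35 against 45; between co-cultured lineages, 2 higher and 4 lower for 22 against 35, 1 higher for 22 against 45, and 0 higher and 3 lower for 35 against 45. For differences between the lineages' changes it left 4 higher for 22 against 35, 1 higher for 22 against 45 and 4 lower for 35 against 45. In the second table it left 3 higher in lineage 03, 0 in 10 and 0 in 13 against Pop, 5 lower in 03 against 10, 4 higher and 4 lower in 03 against 13, and 1 higher and 4 lower in 10 against 13. With the compared groups fitted alone, the higher calls were 5 for co-cultured 22 against 35, 2 for 22 against 45 and 7 for 10 against 13. The replicate block in the fit of co-cultured 22 and 45 alone gave 3 higher; in the fit over all groups the block kept every count of called members within 1.5 times. A stricter filter of 5 CPM, which tests fewer genes, left 1 higher in 10 against Pop, 5 higher in 03 against 13, and 1 gene lower in all 3 co-cultured lineages. Leaving out each library in turn gave ranges of 5 to 11 lower in lineage 35 in co-culture, 5 to 8 higher in isolated 35 against 45, 5 to 9 higher in co-cultured 22 against 35, 3 to 5 in 22 against 45, 1 to 2 in 35 against 45, 0 to 2 in 10 against Pop and 2 to 7 in 10 against 13. The cause of these moves was not tested, beyond the stricter thresholds and the smaller sets of genes or libraries. ENO3, PDK4 and ALDOC are at a few CPM in isolation and SLC16A1 is lower still, so these values rest on few counts.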
